A study of Mus musculus with 66 samples.

Results

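The 9 genes described here mark the layers of the mouse cerebral cortex and were chosen by name, with no threshold on their values but with earlier results of these data known: *Rspo1*, *Scnn1a*, *Cux1*, *Cux2*, *Pou3f2*, *Fezf2*, *Bcl11b*, *Tbr1* and *Foxp2*. They are 9 of the 45706 Ensembl gene identifiers in the deposited tables, and each was found under 1 identifier. Poly(A) RNA of 24 brain hemisections and of 6 cortex, 6 hippocampus and 6 cerebellum samples was sequenced from mice homozygous for 1 of 5 spontaneous *Rorb* alleles that give a high-stepping gait, and from wild-type mice of the matching inbred strain. Brain hemisections, cut along the midline, came from 3 C57BL/6J mice and, on that background, from 3 mice homozygous for h1 and 4 each for h2, h3 and h4, and from 3 DBA/1J and 3 *Rorb* h5/h5 mice. The dissected regions came from 3 DBA/1J and 3 *Rorb* h5/h5 mice, all 3 regions from each mouse. Mutants are written below by their alleles, as in h1/h1. By the study's account h1 is a duplication that takes in the first exon of the *Rorb1* transcript and noncoding sequence upstream, h4 is a premature stop codon in both *Rorb* transcripts, and h5 alters the start codon of *Rorb1*, while the lesions of h2 and h3 were not identified. Each allele is carried in all cells of the mouse. The mutations arose on different C57BL/6 stocks, h1 on C57BL/6J itself, h2 and h3 on an albino stock with a *Tyr* mutation and h4 on a stock with a targeted *Il1r1* allele, and all 4 lines are compared here with C57BL/6J. Both sexes were used, at 7.9 to 9.6 weeks for hemisections and at 7 weeks for the regions.

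The neocortex is built of layers of neurons that differ in birth date, connections and gene expression. *Rorb* encodes the nuclear receptor RORβ, which is expressed in layer 4, the main target of thalamic input, and takes part in the clustering of its neurons into barrels in somatosensory cortex. The genes fall into 3 groups by the layer they are known for. *Rspo1*, a secreted protein that strengthens Wnt signalling, and *Scnn1a*, the alpha subunit of the epithelial sodium channel, are used as layer 4 markers. *Cux1* and *Cux2*, homeobox factors of layers 2 to 4, and *Pou3f2*, a POU factor also called Brn2, mark the upper layers. *Fezf2* and *Bcl11b*, zinc finger factors of layer 5 neurons that project below the cortex, *Tbr1*, a T-box factor of layer 6 corticothalamic neurons, and *Foxp2*, a forkhead factor of layer 6, mark the deep layers. Several are not particular to cortex: *Bcl11b* and *Foxp2* are also known from striatal projection neurons, *Foxp2* from Purkinje cells and *Bcl11b* from hippocampal neurons.

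In the assembly GRCm38.p6, the genes lie on chromosome 4 (*Rspo1*, 124986401 to 125009102, and *Pou3f2*, 22482095 to 22488366), chromosome 5 (*Cux1*, 136248135 to 136567590, and *Cux2*, 121857962 to 122050415), chromosome 6 (*Scnn1a*, 125314271 to 125344943, and *Foxp2*, 14901349 to 15441977), chromosome 14 (*Fezf2*, 12338992 to 12346803), chromosome 12 (*Bcl11b*, 107910403 to 108004145) and chromosome 2 (*Tbr1*, 61802863 to 61814114). RefSeq sequence upstream of the start was at hand for 7 of the 9 genes, in 8 windows of 250 bases, since *Cux2* has 2. Each window lies before 1 RefSeq start, and 6 of the 8 fall wholly inside the span RefSeq gives for the whole gene, printed above. That of *Rspo1* reaches 29 bases into the span and that of *Pou3f2* lies outside it. Of these, 3 are shown: *Rspo1*, which had the largest fitted fall in a mutant, and *Fezf2* and *Tbr1*, the genes that differed most between regions. Each is written 5′ to 3′ on the gene's own strand, with capitals for the letters AGGTCA (the half-site that ROR receptors are known to bind), CANNTG (the E-box) or GGGCGG (the GC box) on either strand.
Rspo1 (chr4:124986180-124986429, plus strand): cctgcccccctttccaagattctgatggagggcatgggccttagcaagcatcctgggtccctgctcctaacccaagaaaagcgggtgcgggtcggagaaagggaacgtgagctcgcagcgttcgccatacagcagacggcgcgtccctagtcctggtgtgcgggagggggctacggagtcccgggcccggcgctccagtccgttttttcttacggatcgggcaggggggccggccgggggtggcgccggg
Fezf2 (chr14:12345866-12346115, minus strand): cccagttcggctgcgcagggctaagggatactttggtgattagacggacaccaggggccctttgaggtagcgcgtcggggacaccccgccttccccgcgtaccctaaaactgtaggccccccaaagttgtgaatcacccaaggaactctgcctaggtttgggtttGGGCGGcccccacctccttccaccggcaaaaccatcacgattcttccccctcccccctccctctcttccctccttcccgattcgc
Tbr1 (chr2:61804203-61804452, plus strand): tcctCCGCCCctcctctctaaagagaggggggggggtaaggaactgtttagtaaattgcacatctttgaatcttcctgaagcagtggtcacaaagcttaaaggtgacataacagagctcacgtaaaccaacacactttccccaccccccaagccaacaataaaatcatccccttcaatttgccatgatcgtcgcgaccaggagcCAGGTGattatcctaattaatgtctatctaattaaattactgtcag
None of the 8 windows held AGGTCA, which 14.02% of all 32851 windows of this length hold on either strand. CANNTG was in 3 of the 8 and in 66.2% of all windows, and GGGCGG in 3 of the 8 and in 32.7% of all. *Rspo1* had none of these letters in a window with 66.8% G and C, against 61.2% for *Fezf2* and 45.2% for *Tbr1*. The absence of a motif says only that its letters are not in that window.

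Library totals were 32889755 to 54446911 expected counts in the hemisections and 33801889 to 48353482 in the regions. Levels below are mostly in CPM, the counts scaled to a common library total, where libraries are compared for 1 gene, and in TPM, which are also scaled by transcript length, where genes are compared with each other. A gene was called where edgeR's quasi-likelihood test, adjusted by the Benjamini-Hochberg method over all genes tested, gave an adjusted p under 0.05. Some properties of the libraries bear on the results. The summed TPM of 10 striatal markers, all of them detected, was 169, 555 and 1064 in the DBA/1J cortex samples of replicates 1, 2 and 3 and 1080 to 1144 in the *Rorb* h5/h5 cortex samples. The sum of 6 cerebellar markers was 26.5 in the DBA/1J hemisection of replicate 1 and 348 to 811 in the 23 others. The sum of 6 cortex markers was 528 in the C57BL/6J hemisection of replicate 1, against 753 and 738 in its fellow controls and 585 to 852 in the mutants on that background. These markers are not particular to cortex, with sums of 1053 to 1349 in DBA/1J cortex, 973 to 1079 in hippocampus and 461 to 516 in cerebellum. In 3 of the 42 libraries, the 3 regions of replicate 3 of *Rorb* h5/h5, *Ddx3y* was at 57.9 to 86.2 CPM although the mouse is labelled female. These are bulk samples, so fewer cells of a type and less RNA per cell cannot be told apart.

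*Rorb*, the mutated gene, was called lower in 2 of the 5 lines. In the hemisections *Rorb* was at 51.5, 52.9 and 61.6 CPM in C57BL/6J, 35.4 to 37.8 in h1/h1, 27.1 to 30.1 in h2/h2, 52.1 to 55.6 in h3/h3 and 9.998 to 15.4 in h4/h4 mice. The fall was called in h2/h2 (log2 fold change -0.91 ± 0.07 SE, edgeR adjusted p = 0.000184) and h4/h4 (-2.10 ± 0.10, adjusted p = 2.35e-06) and missed the threshold in h1/h1 (-0.60 ± 0.07, adjusted p = 0.0838). In h1/h1 *Rorb* had the lowest p of 17603 genes, none of which was called, while 0.136% of all genes were called in h2/h2 and 0.703% in h4/h4. *Rorb* h3/h3 mice were within the controls' range. On the DBA/1J background hemisections had 66.5, 55.5 and 49.3 CPM in controls and 73.4, 76.2 and 87.4 in *Rorb* h5/h5 mice, without overlap (0.40 ± 0.09, edgeR adjusted p = 0.392). Groups did not overlap there for 14.2% of all genes, and no gene was called in h5/h5 hemisections or cortex. In cortex it was at 82.1, 105 and 81.5 CPM in DBA/1J and 144, 154 and 154 CPM in *Rorb* h5/h5 (0.72 ± 0.11, edgeR adjusted p = 0.124), and in hippocampus and cerebellum the mutants were again above the controls (0.47 ± 0.08 and 0.56 ± 0.07, edgeR adjusted p = 0.346 and 0.0806).

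In wild-type DBA/1J mice the 9 genes had distinct regional levels, and 4 of them had their highest level in cortex. By mean TPM (± SD, n = 3), the order in cortex was *Cux2* (112 ± 14.9), *Tbr1* (69.9 ± 9.51), *Cux1* (52.1 ± 4.26), *Bcl11b* (20.0 ± 11.3), *Fezf2* (16.0 ± 3.07), *Pou3f2* (14.7 ± 1.57), *Rspo1* (9.36 ± 2.35), *Foxp2* (6.87 ± 3.89) and *Scnn1a* (1.83 ± 0.59). *Bcl11b*, *Fezf2* and *Pou3f2* lay within one another's spread, as did *Rspo1* and *Foxp2*. In hippocampus *Bcl11b* (36.7 ± 3.34) and *Cux2* (36.3 ± 2.48) led, and in cerebellum *Cux1* (85.8 ± 8.23). *Rspo1*, *Cux2*, *Pou3f2* and *Tbr1* were highest in cortex, *Scnn1a*, *Fezf2* and *Bcl11b* in hippocampus and *Cux1* in cerebellum, while *Foxp2* in cortex overlapped its cerebellar level.

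**Figure D1:**
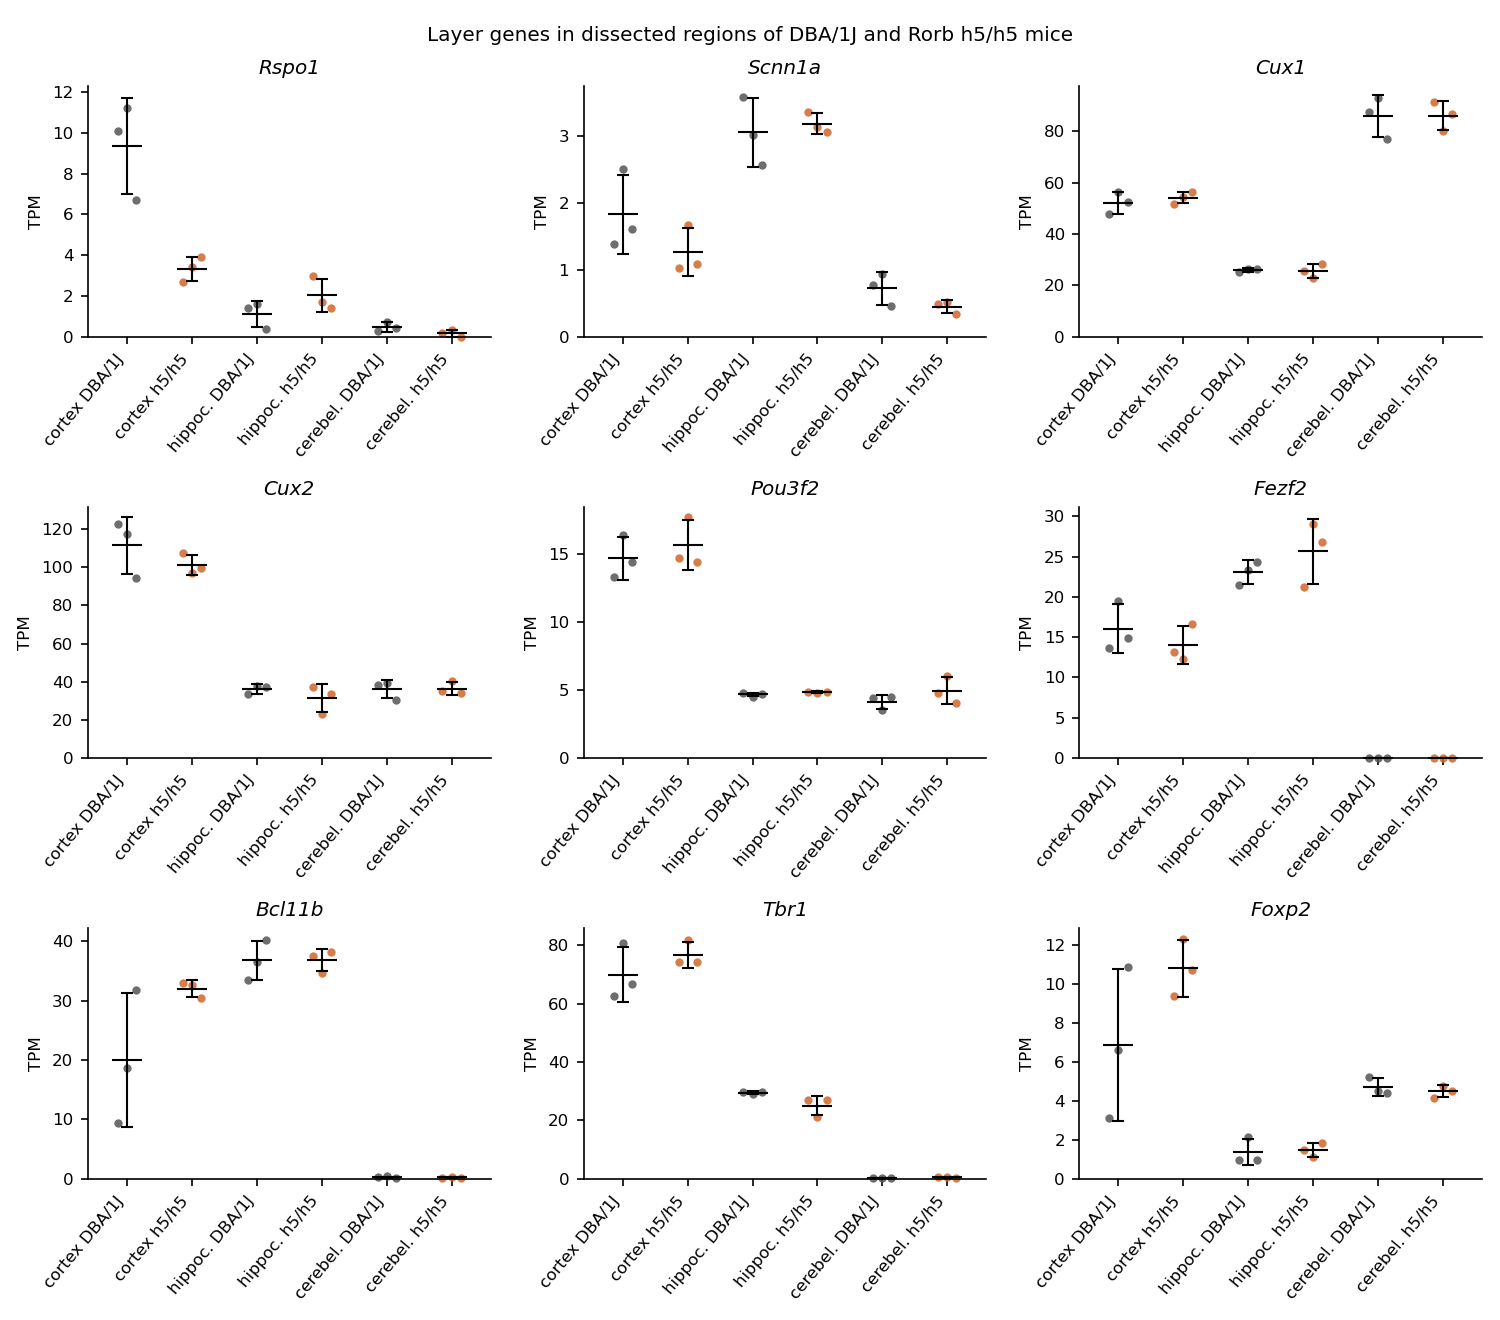
TPM of the 9 layer genes in cortex, hippocampus and cerebellum of DBA/1J (grey) and *Rorb* h5/h5 mice (orange). Points are libraries, 3 in each group, with the mean and SD in black and a scale that starts at 0 in each panel. *Rspo1* in *Rorb* h5/h5 cortex, at most 3.89, lay below all 3 DBA/1J cortex samples (6.72 to 11.2), while *Bcl11b* and *Foxp2* were widely spread in DBA/1J cortex.

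Of the layer 4 markers, *Rspo1* was mainly cortical and *Scnn1a* was not. *Rspo1* was at 8.10, 8.12 and 5.14 CPM in the DBA/1J cortex samples, 1.21, 1.32 and 0.31 in hippocampus and 0.23, 0.58 and 0.09 in cerebellum. Cortex lay above both other regions without overlap, 7.85-fold higher than hippocampus (log2 2.97 ± 0.42 SE, edgeR adjusted p = 0.00156) and 25.3-fold higher than cerebellum (4.66 ± 0.43, adjusted p = 1.16e-05). *Scnn1a* was at 2.57, 3.89 and 2.69 CPM in cortex, 6.04, 5.00 and 4.06 in hippocampus and 1.14, 1.38 and 0.75 in cerebellum. Every hippocampus sample exceeded every cortex sample, and this difference missed the threshold (cortex minus hippocampus -0.67 ± 0.22, edgeR adjusted p = 0.0622, and 0.0402 without the low-count filter), while cortex exceeded cerebellum (1.61 ± 0.28, adjusted p = 0.000843). The summed TPM of 5 choroid plexus markers was 1496 to 6226 in hippocampus, 2561 to 3716 in cerebellum and 21.8 to 879 in cortex of these mice, and its part in the levels of *Scnn1a* was not tested.

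The upper-layer genes shared a step between cortex and hippocampus and parted in cerebellum. *Cux2* was at 187, 172 and 133 CPM in cortex, 57.4, 57.4 and 54.7 in hippocampus and 59.3, 64.0 and 54.8 in cerebellum, so that its non-cortical levels overlapped (hippocampus minus cerebellum -0.01 ± 0.07, edgeR adjusted p = 0.876). *Pou3f2* had a median of 40.8 CPM in cortex, 13.0 in hippocampus and 11.4 in cerebellum, and its non-cortical levels did not overlap (hippocampus minus cerebellum 0.34 ± 0.11, edgeR adjusted p = 0.0229). *Cux1* was at 130 to 143 CPM in cortex, 54.0 to 59.95 in hippocampus and 198 to 214 in cerebellum. Cortex exceeded hippocampus in *Cux1* (1.28 ± 0.08), *Cux2* (1.58 ± 0.11) and *Pou3f2* (1.71 ± 0.08), with edgeR adjusted p-values of 2.28e-05, 4.73e-05 and 9.86e-06. Against cerebellum, cortex was lower in *Cux1* (-0.51 ± 0.07, edgeR adjusted p = 0.000277) and higher in *Cux2* (1.59 ± 0.12, adjusted p = 2.42e-06) and *Pou3f2* (2.08 ± 0.12, adjusted p = 3.4e-07). The *Cux1* locus also encodes a Golgi protein, CASP, and counts per gene do not separate its 14 transcripts.

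The deep-layer genes were not higher in cortex than in hippocampus as a group. *Tbr1* was, at 126 to 152 CPM against 56.0 to 58.9 (1.295 ± 0.09, edgeR adjusted p = 3.49e-05). *Fezf2* was lower in cortex, at 16.2, 20.8 and 15.7 CPM against 24.2, 25.02 and 26.0 in hippocampus (-0.47 ± 0.12, adjusted p = 0.0256). *Bcl11b* was at 9.34, 18.7 and 31.8 TPM in the DBA/1J cortex samples and at 33.5, 36.5 and 40.2 TPM in hippocampus, without overlap and short of the threshold (-0.83 ± 0.32, adjusted p = 0.108). *Foxp2* was at 11.1, 20.7 and 32.6 CPM in cortex, 3.31, 6.76 and 3.08 in hippocampus and 11.8 to 13.3 in cerebellum, with cortex above hippocampus (2.34 ± 0.43, adjusted p = 0.00597). All 10 striatal markers were fitted higher in cortex as well (median 2.05, 6 of them called), with sums of 169 to 1064 TPM there and 136 to 206 TPM in hippocampus, and their part in the value of *Foxp2* was not tested.

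In cerebellum 3 of the deep-layer genes were close to absent. *Fezf2* had 1, 0 and 0 counts in the DBA/1J and 0 counts in all 3 *Rorb* h5/h5 cerebella, against 608 to 780 counts in DBA/1J cortex. Summed over libraries, the DBA/1J ratio of cortex to cerebellum was 2115, with an exact 95% counting interval of 379 to 83560 that covers counting error only, and in *Rorb* h5/h5 cortex was at least 536-fold higher, with 3 counts over the group as the floor. *Tbr1* was at 0.39 to 0.52 CPM and *Bcl11b* at 0.59 to 1.01 CPM in DBA/1J cerebellum, so that cortex was higher by 8.32 ± 0.14 (edgeR adjusted p = 5.78e-10) and 6.47 ± 0.46 (adjusted p = 1.87e-06) on the log2 scale.

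Counted together, 7 of the 9 genes were called between DBA/1J cortex and hippocampus, where 20.6% of all genes tested were, 9 between cortex and cerebellum (58.1%) and 8 between hippocampus and cerebellum (64%). In the fits with cerebellum, *Rspo1* and *Fezf2* passed the count filter through the other region, where they were higher, so the filter favoured their calls. With the animal as a block, *Bcl11b* was called as well in cortex against hippocampus (adjusted p = 0.0269), among 3815 genes in place of 3537. Without the low-count filter all 9 were called, *Bcl11b* at an adjusted p of 0.0483 and *Scnn1a* at 0.0402, among 3615 genes. The median log2 difference of the 9 genes was 1.295 from hippocampus to cortex and 2.08 from cerebellum to cortex, against medians over all genes of 0.00 and -0.01. Of the other layer genes listed, 36 in all, cortex was called higher than hippocampus for 5 of 9 upper-layer, 2 of 6 layer 4, 4 of 10 layer 5 (9 of them tested) and 8 of 11 layer 6 and 6b genes. It was called lower for 1, 1, 1 and 2 of them.

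The main question was whether the layer genes changed with the *Rorb* alleles in hemisections. None of the 9 was called in any of the 5 comparisons of a mutant line with its strain-matched control. Over all genes the share called was 0% in h1/h1 (no gene of 17603, with 745 at an unadjusted p under 0.05), 0.136% in h2/h2, 0.164% in h3/h3, 0.703% in h4/h4 and 0% in h5/h5 hemisections (1003 genes at an unadjusted p under 0.05). DESeq2, run as an alternative, likewise called none of the 9 in these comparisons. With so few calls among all genes, a count of 0 among 9 is no result about the layer genes. The median fitted difference over the 9 genes was 0.06, 0.08, 0.06 and 0.13 in h1/h1 to h4/h4 and -0.14 in h5/h5, and over all genes it lay within 0.01 of 0 in each. Single genes lay farther from 0, with *Rspo1* at -0.63 in h2/h2 and -0.79 in h5/h5.

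**Figure D2:**
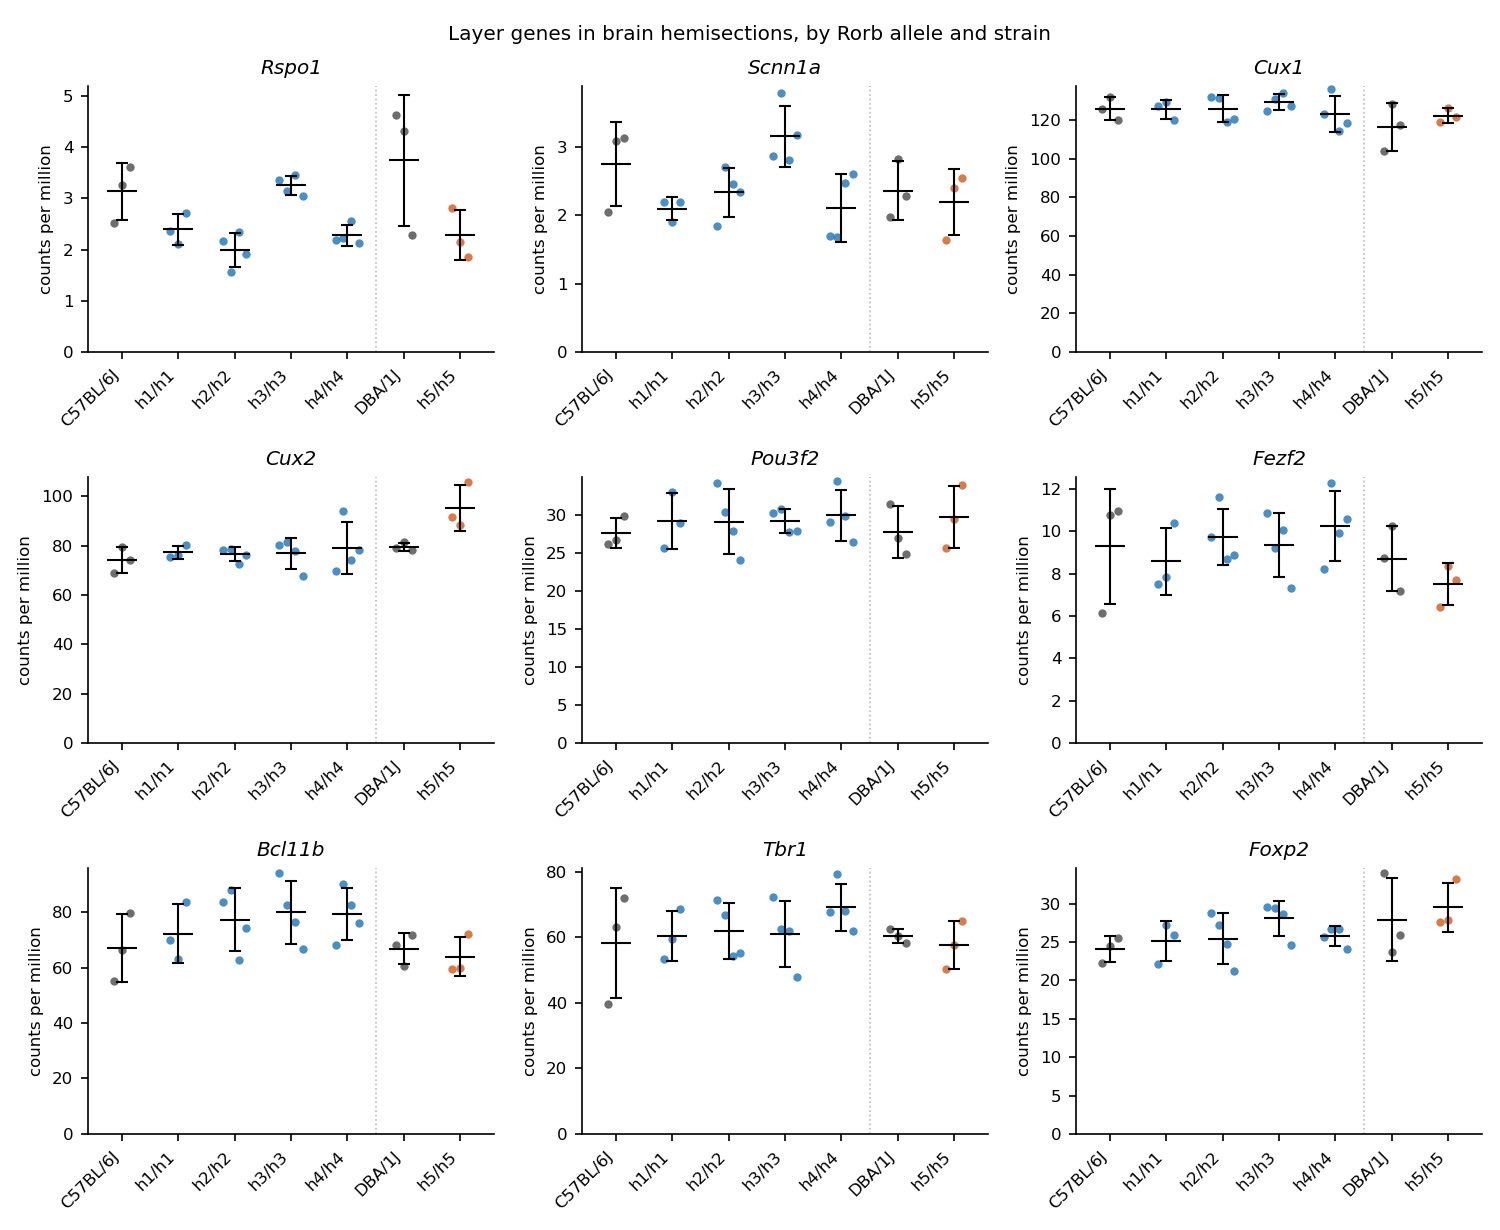
CPM of the 9 layer genes in hemisections of C57BL/6J and 4 mutant lines on that background, and, right of the dotted line, of DBA/1J and *Rorb* h5/h5 mice. Points are libraries, 3 or 4 in each group, with the mean and SD in black and a scale that starts at 0. The groups overlapped in most panels, and *Rspo1* in h2/h2 mice (1.57 to 2.34) lay below all 3 C57BL/6J samples (2.53 to 3.62).

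*Rspo1* had the lowest fitted value of the 9 in hemisections of h2/h2, h4/h4 and h5/h5 mice, without a call. It was at 2.53, 3.27 and 3.62 CPM in C57BL/6J, at 2.37, 2.10 and 2.71 in h1/h1, at 2.17, 1.57, 2.34 and 1.90 in h2/h2, at 3.36, 3.15, 3.46 and 3.05 in h3/h3 and at 2.18, 2.23, 2.57 and 2.13 in h4/h4 mice. The h2/h2 samples were all below the controls, the h1/h1 and h4/h4 samples overlapped only the lowest control, and the h3/h3 samples were within the controls' range. Groups failed to overlap in either direction for 1 of the 9 genes in h2/h2, *Rspo1*, and for none in h1/h1, h3/h3 and h4/h4, where over all genes with at least 10 counts this happened for 7.7%, 8.57%, 8.66% and 10.1%. The log2 fold change of *Rspo1* was -0.39 ± 0.18 SE in h1/h1, -0.63 ± 0.17 in h2/h2 (edgeR adjusted p = 0.366), 0.05 ± 0.14 in h3/h3 and -0.43 ± 0.16 in h4/h4 mice (edgeR adjusted p = 0.27). On log2(TPM + 1) with limma, a scale that shrinks the differences of low genes, the values were -0.25 in h1/h1, -0.38 in h2/h2 and -0.28 in h4/h4 mice. These comparisons share the 3 C57BL/6J samples.

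A fit of all 15 mutants on the C57BL/6J background against those controls once gave *Rspo1* a log2 fold change of -0.35 ± 0.12 (0.784-fold, edgeR adjusted p = 0.233; -0.46 without the C57BL/6J sample of replicate 1 and -0.23 without that of replicate 3), with 0.547% of all genes called. The 4 lines also differed among themselves in *Rspo1* at an unadjusted p of 0.000611, in edgeR's F test over the lines, and its edgeR adjusted p over 18472 genes was 0.129, with 0.254% called. Of the 8 other genes *Scnn1a* was nearest (edgeR adjusted p = 0.65). *Rspo1* was fitted lower in the 3 lines with lower fitted *Rorb*, h1/h1, h2/h2 and h4/h4, and near the controls in h3/h3, where *Rorb* was too. The order differed, with *Rorb* lowest in h4/h4 and *Rspo1* in h2/h2 mice. In h5/h5 hemisections *Rorb* was fitted higher (0.40 ± 0.09) and *Rspo1* lower (-0.79 ± 0.28). None of these *Rspo1* values was called. Samples of h2/h2 and h4/h4 mice overlapped in *Rspo1*.

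In hemisections on the DBA/1J background *Rspo1* was at 4.64, 4.32 and 2.28 CPM in controls and at 2.82, 2.15 and 1.86 in *Rorb* h5/h5 mice. The groups overlapped through the control of replicate 3. The fitted difference was -0.79 ± 0.28 (edgeR adjusted p = 0.732), and without that control it was -1.04 ± 0.22 (adjusted p = 0.307). On log2(TPM + 0.1) with limma it was -0.09 ± 0.28. The gene length that RSEM assigned to *Rspo1*, from 2 transcripts, was 1763 to 1834 bases in the DBA/1J samples and 1147 to 1488 in the mutants, and a shorter length raises the TPM of a given count.

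*Scnn1a* was at 2.05, 3.08 and 3.12 CPM in C57BL/6J hemisections, at 2.19, 1.90 and 2.19 in h1/h1 and at 1.69, 1.68, 2.48 and 2.60 in h4/h4 mice. All groups overlapped, and the fitted values were -0.39 ± 0.20 in h1/h1, -0.22 ± 0.19 in h2/h2, 0.19 ± 0.17 in h3/h3, -0.34 ± 0.22 in h4/h4 and -0.18 ± 0.22 in h5/h5 mice. Single libraries moved the values of h2/h2, h3/h3, h4/h4 and h5/h5 mice by over 1.5 times, and that of h1/h1 mice less, to between -0.54 and -0.29. Leaving out each in turn gave -0.36 to -0.11 in h2/h2, 0.040 to 0.29 in h3/h3, -0.49 to -0.21 in h4/h4 and -0.31 to -0.015 in h5/h5 mice, the value nearest 0 coming without the h2/h2 sample of replicate 1, the C57BL/6J sample of replicate 1, the h4/h4 sample of replicate 2 and the DBA/1J sample of replicate 2, and the h5/h5 value was 0.022 with the identifier series as a block. At 1.49 ± 0.29 TPM in DBA/1J and 1.59 ± 0.37 in C57BL/6J (SD, n = 3), it was the least abundant of the 9 in hemisections.

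The upper-layer genes differed little from the controls. *Cux1* was at 114 to 136 CPM in the 18 hemisections on the C57BL/6J background, and its 4 fitted differences lay between 0.00 and 0.04 with standard errors of 0.04 to 0.06. *Pou3f2* differed from the controls by 0.07 to 0.15 in h1/h1 to h4/h4 and by 0.02 ± 0.10 in h5/h5 mice, with every group overlapping its controls. *Cux2* had fitted differences of 0.05 to 0.13 in h1/h1 to h4/h4 on counts and of -0.16 to -0.05 on log2(TPM + 0.1). The gene length that RSEM assigned to it, from 11 transcripts, which TPM divide by, had a median of 3041 bases in C57BL/6J and of 3419 to 3554 in the mutants. In DBA/1J mice *Cux2* was at 79.2, 81.5 and 78.4 CPM and in *Rorb* h5/h5 mice at 91.6, 88.5 and 106. This was the 1 layer gene of 9 whose groups did not overlap in h5/h5 hemisections, against 14.2% of all genes (0.18 ± 0.06, edgeR adjusted p = 0.696).

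Of the deep-layer genes, 3 moved with the cortex markers of the hemisections. *Tbr1* was at 39.7, 63.1 and 72.1 CPM in C57BL/6J, where the lowest value belonged to the sample with few cortex markers, and at 47.8 to 79.2 in the mutants of that background. Across the 24 hemisections the Pearson correlation with the summed TPM of the 6 cortex markers was 0.87 for *Tbr1*, 0.88 for *Fezf2* and 0.79 for *Bcl11b*, against 0.47 for *Pou3f2*, 0.42 for *Cux1*, 0.30 for *Cux2*, 0.18 for *Foxp2*, 0.16 for *Scnn1a* and -0.07 for *Rspo1*. These libraries share strains and dissections, so the values are a description. *Fezf2* was at 6.14, 10.8 and 11.0 CPM in the 3 controls and 7.33 to 12.3 in the mutants, and *Bcl11b* at 55.3, 66.3 and 79.6 in the controls and 62.7 to 94.0 in the mutants.

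The fitted differences of the deep-layer genes in h4/h4 mice were 0.28 ± 0.14 for *Tbr1*, 0.28 ± 0.10 for *Bcl11b*, 0.18 ± 0.17 for *Fezf2* and 0.13 ± 0.07 for *Foxp2*, with edgeR adjusted p-values of 0.407, 0.282, 0.689 and 0.408. In h3/h3 mice *Bcl11b* was at 0.25 ± 0.11 and *Foxp2* at 0.22 ± 0.07 (edgeR adjusted p = 0.482 and 0.298; 0.15 and 0.18 without the C57BL/6J sample of replicate 1 and 0.39 and 0.26 without that of replicate 3), and *Tbr1* and *Fezf2* at 0.06 ± 0.16 and 0.01 ± 0.17. Beside these, all 10 striatal markers had fitted values above 0 in both lines (median 0.17 in h4/h4 and 0.20 in h3/h3) and all 6 cerebellar markers below 0 (-0.39 and -0.28), none of them called. The part of these markers in the differences was not tested. Without the C57BL/6J sample of replicate 1 the values of h4/h4 mice, in the order above, were 0.09 ± 0.07, 0.18 ± 0.10, -0.02 ± 0.13 and 0.10 ± 0.07. In the fit of the 4 lines together, leaving out that sample moved *Tbr1* from 0.13 ± 0.12 to -0.07 ± 0.11 and *Fezf2* from 0.04 ± 0.14 to -0.16 ± 0.13. With the log2 of the summed cortex markers as a covariate, an alternative chosen after its values were seen, *Tbr1* in h4/h4 mice was at 0.17 ± 0.08 (adjusted p = 0.41).

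In h5/h5 hemisections *Tbr1* was at -0.14 ± 0.07, *Fezf2* at -0.29 ± 0.15 and *Bcl11b* at -0.14 ± 0.07, none of them called. All 6 cerebellar markers were fitted higher (median 0.72) and 7 of 9 markers of cortical projection neurons lower (median -0.14), without a call, and their part in these values was not tested. Without the DBA/1J sample of replicate 2 *Fezf2* was at -0.14, without that of replicate 3 *Bcl11b* was at -0.079, and without the *Rorb* h5/h5 sample of replicate 1 *Tbr1* was at -0.089. *Foxp2* was at 34.0, 23.7 and 25.9 CPM in DBA/1J and 27.6, 27.8 and 33.2 in the mutants, its highest control being the sample with few cerebellar markers. Without that sample the difference of *Foxp2* was 0.16 ± 0.09 in place of 0.01 ± 0.12, and that of *Cux1* -0.09 ± 0.06 in place of 0.00 ± 0.09.

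**Figure D3:**
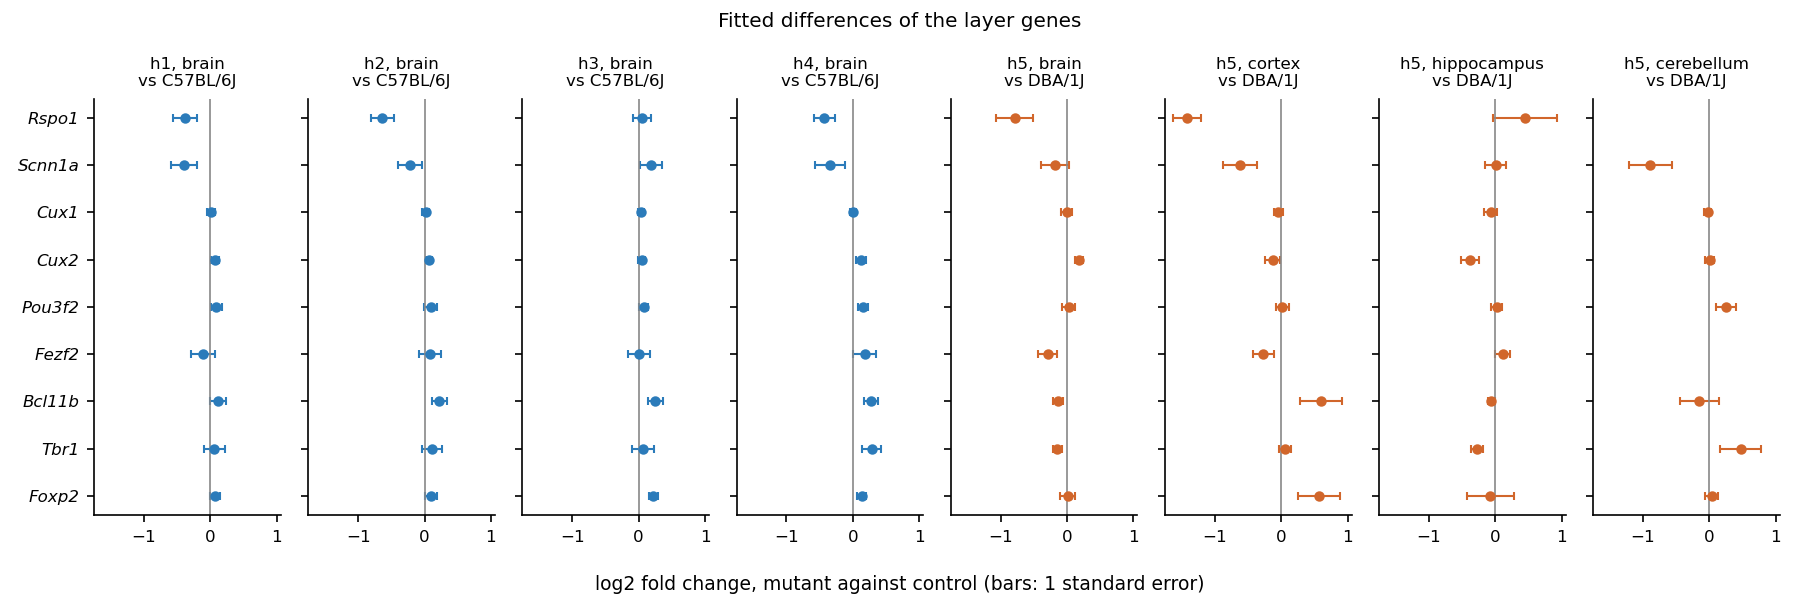
Fitted log2 fold change of each layer gene, mutant against strain-matched control, in the 8 comparisons, with 1 standard error. Blue marks the C57BL/6J background and orange DBA/1J, and *Rspo1* and *Fezf2* in cerebellum are not drawn because they did not pass the count filter. The value farthest from 0 is that of *Rspo1* in *Rorb* h5/h5 cortex (-1.41), and *Cux1* is close to 0 in all 8.

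The 2 wild-type strains did not differ in a called layer gene, where 11.2% of all genes were called between DBA/1J and C57BL/6J hemisections. Of the 36 other listed layer genes 6 were called, all lower in DBA/1J: *Ctxn3*, *Endou* and *Hsd11b1* of the 6 layer 4 genes (-0.54 ± 0.13, -2.12 ± 0.24 and -0.64 ± 0.14, edgeR adjusted p = 0.0234, 0.000422 and 0.0182), *Plxnd1* of the upper layers and *Deptor* and *Pcp4* of layer 5. All 6 cerebellar markers were also fitted lower in DBA/1J (median -0.80, none called), whose hemisection of replicate 1 had the cerebellar sum of 26.5 TPM, and their part in these calls was not tested. Among the 9 genes the difference nearest the threshold was in *Cux2* (0.15 ± 0.05, edgeR adjusted p = 0.099), followed by *Foxp2* (0.25 ± 0.11, adjusted p = 0.208). The effect of h1 to h4 minus that of h5 was not called for any of the 9 genes either, with 0.016% of all genes called. For *Rspo1* it was 0.44 ± 0.27 (adjusted p = 0.699).

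In dissected cortex *Rspo1* was lower in all 3 *Rorb* h5/h5 mice than in any control. The DBA/1J samples had 8.10, 8.12 and 5.14 CPM (353, 305 and 199 counts) and the mutants 2.19, 2.83 and 3.15 CPM (92, 123 and 127 counts). The fitted level was 0.376 times that of the controls (log2 -1.41 ± 0.21 SE). In edgeR p was 0.000102 and the adjusted p 0.125, in a comparison where 0% of 17220 genes were called and 1106 had an unadjusted p under 0.05. DESeq2, the tool of the study, called *Rspo1* at an adjusted p of 1.27e-06 among 59 genes in all. It was also called without the low-count filter (adjusted p = 0.0106), with the identifier series of the mice as a block (0.0333) and without the DBA/1J sample of replicate 3 (-1.59 ± 0.17, adjusted p = 0.00921).

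*Rspo1* was the only one of the 9 genes whose groups did not overlap in cortex, against 13% of all genes. Its adjusted p over the 15 alternatives ran from 1.27e-06 to 0.777, with 4 calls, and the fitted difference from -1.59 to -1.16. The lowest control in *Rspo1*, at 5.14 CPM, and all 3 mutants were also the samples with striatal sums of 1064 TPM or more. With the log2 of that sum as a covariate, an alternative chosen after its values were seen, *Rspo1* was at -1.16 ± 0.24 (adjusted p = 0.406). Allele and striatal sum cannot be told apart in these libraries, so this fit does not separate them, and the part of striatal tissue in the difference was not tested. Without the *Rorb* h5/h5 sample that goes against its labelled sex, the difference was -1.54 ± 0.24 (adjusted p = 0.352).

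*Scnn1a* was at 2.57, 3.89 and 2.69 CPM in DBA/1J and 1.67, 2.72 and 1.69 CPM in *Rorb* h5/h5 cortex. The groups overlapped through the mutant of replicate 2, and the difference was -0.62 ± 0.26 (edgeR adjusted p = 0.764). It was -0.40 without the DBA/1J sample of replicate 2, -0.87 without the mutant of replicate 2 and -0.97 with the identifier series as a block. The choroid plexus markers, 5 in number, summed to 879 TPM in the DBA/1J and 679 TPM in the mutant sample of replicate 2 and to 21.8 to 73.9 TPM in the 4 others, and these 2 samples were the highest of their groups in *Scnn1a*. The part of that tissue in the result was not tested.

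*Bcl11b* and *Foxp2*, which striatal neurons are known to express, had values that moved with the striatal sums. Allele and striatal sum cannot be told apart in these 6 libraries, and the part of striatal tissue in the values was not tested. *Bcl11b* was at 9.34, 18.7 and 31.8 TPM in DBA/1J cortex, in the same order as those sums, and at 33.0, 32.7 and 30.4 TPM in *Rorb* h5/h5 cortex. *Foxp2* was at 11.1, 20.7 and 32.6 CPM in DBA/1J and at 28.1, 38.6 and 31.2 CPM in *Rorb* h5/h5 cortex. Over the 6 cortex libraries the correlation with the striatal sum was 0.97 for *Bcl11b*, 0.94 for *Foxp2*, -0.89 for *Rspo1*, -0.87 for *Cux2* and between -0.48 and 0.16 for the others, a description that rests on 2 groups and largely on the 2 controls with low sums. The fitted differences were 0.60 ± 0.32 for *Bcl11b* and 0.57 ± 0.32 for *Foxp2* (edgeR adjusted p = 0.768 and 0.771), and with the striatal sum as a covariate -0.01 ± 0.10 and -0.06 ± 0.12. Without the DBA/1J sample of replicate 3, the 1 control whose striatal sum was near those of the mutants, *Bcl11b* was called higher (1.09 ± 0.18, adjusted p = 0.0259) and *Foxp2* was not (1.01 ± 0.23, adjusted p = 0.0721).

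**Figure D4:**
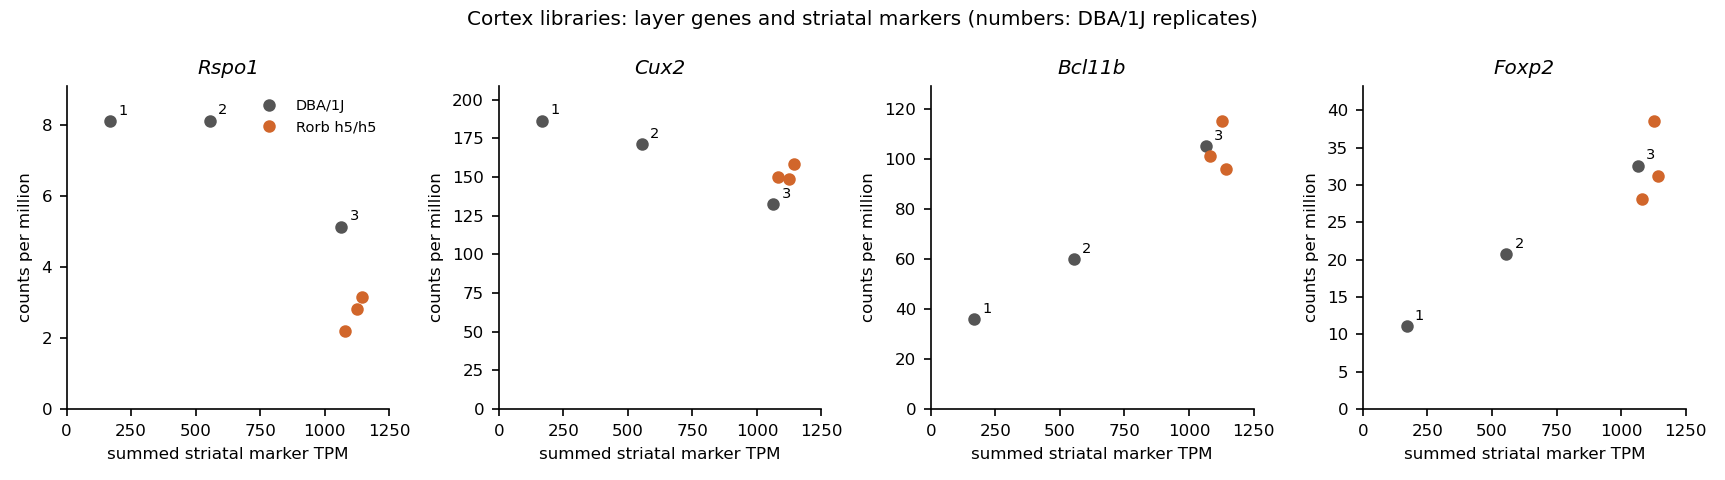
CPM of 4 layer genes in the 6 cortex libraries against the summed TPM of 10 striatal markers, with DBA/1J in grey (numbered by replicate) and *Rorb* h5/h5 in orange. The striatal sums were 169, 555 and 1064 in DBA/1J and 1080 to 1144 in the mutants. *Bcl11b* and *Foxp2* were higher at higher sums, and the DBA/1J sample of replicate 3 lay among the mutants for them but above the mutants for *Rspo1* (5.14 against at most 3.15).

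The 5 other genes overlapped their controls in cortex. *Cux1* was at 128 to 135 CPM in the mutants and 130 to 143 in DBA/1J (-0.04 ± 0.07), *Pou3f2* at 39.3 to 50.04 against 39.3 to 45.2 (0.02 ± 0.10) and *Tbr1* at 138 to 159 against 126 to 152 (0.06 ± 0.09). *Cux2* was at 149 to 158 CPM against 133 to 187 (-0.12 ± 0.11) and *Fezf2* at 13.2 to 17.5 against 15.7 to 20.8 (-0.27 ± 0.15). All 5 had edgeR adjusted p-values of 0.771 or more.

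In hippocampus and cerebellum none of the layer genes was called in *Rorb* h5/h5 mice, where 0.0118% and 0.012% of all genes were. *Rspo1* had 41, 50 and 13 counts in DBA/1J and 55, 52 and 43 in *Rorb* h5/h5 hippocampus (0.45 ± 0.49). Without the DBA/1J sample of replicate 3, which had the 13 counts, this was 0.019, and without that of replicate 2 it was 0.79. The difference between its effect in cortex and that in hippocampus was -1.86 ± 0.54 (edgeR adjusted p = 1), with 0% of all genes called and 507 at an unadjusted p under 0.05. Groups did not overlap for *Cux2* and *Tbr1* in hippocampus, against 9.43% of all genes. *Cux2* was at 57.4, 57.4 and 54.7 CPM in DBA/1J and 50.7, 33.3 and 47.5 in the mutants (-0.38 ± 0.14, adjusted p = 0.997), and *Tbr1* at 58.9, 56.0 and 57.1 against 51.1, 40.8 and 51.8 (-0.28 ± 0.09, adjusted p = 0.997). The *Rorb* h5/h5 sample of replicate 2 was the lowest in both, and without it *Cux2* was at -0.22 and *Tbr1* at -0.17. Fitted lower beside them were 8 of 9 markers of cortical projection neurons (median -0.13), 5 of 6 cortex markers (-0.21) and 7 of 8 thalamic markers (-0.23), none of them called, and their part was not tested.

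In cerebellum 7 of the 9 genes passed the count filter. *Rspo1* had 8, 25 and 4 counts in DBA/1J and 6, 9 and 0 in *Rorb* h5/h5 mice and *Fezf2* at most 1, so neither was tested there. *Scnn1a* was at 1.14, 1.38 and 0.75 CPM in DBA/1J and 0.58, 0.74 and 0.44 in the mutants, without overlap (-0.89 ± 0.33, edgeR adjusted p = 0.857, and -0.24 on log2(TPM + 1)), and *Tbr1* at 0.39 to 0.52 against 0.58 to 0.74 CPM (0.47 ± 0.31, adjusted p = 0.93, and 0.19 on log2(TPM + 1)). The summed choroid plexus markers did not overlap either, at 2561 to 3716 TPM in DBA/1J and 12.4 to 2041 TPM in the mutants, with all 5 markers fitted lower (median -1.54) and none called, and their part in the value of *Scnn1a* was not tested. These 2 layer genes of 9 stand beside 10.9% of all genes whose groups did not overlap. The effect in cortex minus that in cerebellum was not called for any of the 7 genes that passed the filter in cerebellum, with 0.00555% of all genes called. *Rspo1* and *Fezf2* passed the filter of that fit through cortex, and with so few cerebellar counts their missing calls say nothing.

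The other listed layer genes gave 1 call in the comparisons of mutant with control, in h4/h4 hemisections, where 0.703% of all genes were called. *Whrn*, which encodes the scaffold protein whirlin and was listed with layer 4, was at 41.8, 40.3 and 39.3 CPM in C57BL/6J and 32.3, 36.0, 30.8 and 29.8 in h4/h4 hemisections, without overlap (-0.29 ± 0.06, edgeR adjusted p = 0.0435). The h1/h1 (32.7 to 38.5 CPM) and h2/h2 samples (32.6 to 37.3) were also below all 3 controls, without a call (-0.19 ± 0.07 and -0.20 ± 0.06, adjusted p = 0.998 and 0.442). In DBA/1J mice *Whrn* was at 60.7 to 63.5 CPM in cerebellum and 28.1 to 33.1 in cortex (cortex minus cerebellum -0.91 ± 0.08, adjusted p = 1.2e-05). The cerebellar markers were fitted lower in 6 of 6 cases in h4/h4 (median -0.39), 5 of 6 in h1/h1 (-0.09) and 5 of 6 in h2/h2 hemisections (-0.16), and their part in the values of *Whrn* was not tested. In h3/h3 mice *Whrn* was at 37.2 to 42.0 CPM, and its fitted difference was -0.02 ± 0.06. In cortex it was at 28.1, 33.1 and 29.3 CPM in DBA/1J and 19.2, 20.8 and 17.2 in *Rorb* h5/h5 mice (0.619-fold, adjusted p = 0.124), again without overlap, which held for 10.1% of all genes in h4/h4 hemisections, 8.57% in h1/h1, 7.7% in h2/h2 and 13% in cortex. The 6 layer 4 genes as a list did not go one way in h4/h4 hemisections, with 3 fitted higher and 3 lower and a median of 0.04, and the medians were -0.04, -0.09 and 0.03 in h1/h1, h2/h2 and h3/h3. *Rorb* h5/h5 mice overlapped their controls in *Whrn* in hemisections (-0.08 ± 0.09), hippocampus (0.14 ± 0.19) and cerebellum (0.01 ± 0.05). In *Rorb* h5/h5 cortex the medians of the lists were 0.01 for 9 upper-layer, 0.21 for 6 layer 4, 0.07 for 10 layer 5 and 0.25 for 11 layer 6 and 6b genes, with none called, against 0.00 over all genes. The summed striatal markers were at 169 to 1064 TPM in DBA/1J and 1080 to 1144 TPM in *Rorb* h5/h5 cortex, and their part in these medians was not tested.

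Across the 24 hemisections some of the layer genes varied together within their groups. The correlation of log2 CPM, after the mean of each group was subtracted, was 0.80 between *Tbr1* and *Fezf2*, 0.76 between *Tbr1* and *Bcl11b* and 0.77 between *Foxp2* and *Pou3f2*, and it was 0.00 between the layer 4 markers *Rspo1* and *Scnn1a*. Of 18417 genes, those most like *Tbr1* in this measure were *Kcnv1* (r = 0.97) and *Opcml* (0.96), and those most like *Fezf2* were *Tshz3* (0.91) and *Tmem132d* (0.90). For *Bcl11b* they were *Dclk3* and *Akap5* (both 0.92), for *Cux1* *Syne1* (0.92) and *Syne2* (0.91), and for *Foxp2* *Rngtt* (0.89) and *Tmeff1* (0.86). *Pou3f2* was most like *Ccnc* (0.85) and *Mob1b* (0.84), and *Cux2* most like *Actn1* and *Cpne5* (0.82 and 0.81). The low-count genes had weaker matches, *Rspo1* with *Zglp1* and *Znhit1* (0.76 and 0.74) and *Scnn1a* with *Ripply3* and *Ube2t* (0.77 and 0.74). These values describe libraries that share dissections and, within a group, a strain, and best matches among so many genes are high by selection.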

How the data were processed

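Poly(A) RNA-Seq of 42 of the 66 libraries was used, and the 24 spinal cord libraries were not used here. Per the study's methods and the labels, the authors checked reads with FastQC, trimmed them with Trim Galore, aligned them to GRCm38 with STAR and estimated expression per gene with RSEM. The deposited files hold RSEM expected counts, not normalized, and TPM, which the authors' RSEM run scaled by an estimated effective gene length. Of the expected counts, 5.03% were not whole, and they were rounded before testing.

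Each mutant was compared with strain-matched controls within a tissue, the study's pairwise design, by edgeR 4.0.16 in R 4.3.3 (filterByExpr, TMM, quasi-likelihood F test, Benjamini-Hochberg adjustment over all genes tested). CPM divides an expected count, not rounded, by the library total. Alternatives were DESeq2 1.42.0, edgeR with the size factors of DESeq2 or with every gene that had a count, labelled sex, replicate or identifier series as covariates, limma 3.58.1 on log2(TPM + 0.1) and log2(TPM + 1), 1 fit of all brain groups and leaving out each library. The fits were tested on simulated data. The members and lists were chosen with earlier results of these data known, and all 9 members are named, with *Rorb* and any listed layer gene called in a mutant. Libraries of a group are separate mice, so p-values measure the spread between these mice. Alternatives with marker sums as covariates were added after seeing the data. RSEM was run with default parameters, which do not use strand, so reads that fit genes on both strands are shared out between them. The expected counts of *Rspo1*, *Cux1* and *Foxp2* were whole in every library used, so none of their reads show as shared out. Those of *Cux2* were not whole, and which genes share its reads was not tested.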

Additional observations from a re-analysis of the deposited data

How the results depend on the processing

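Of 1286 fold changes of the 9 genes under alternatives, 28 changed sign with at least 1 of the 2 values more than 1 standard error from 0 and 74 with both closer to 0. No fold change that was called changed sign. The number of layer genes called in *Rorb* h5/h5 cortex was 0 and became 1, *Rspo1*, without the low-count filter, with DESeq2 and with the identifier series as a block (20, 59 and 20 genes called in all), and ranged from 0 to 2 when each library was left out. The count of 2, *Rspo1* and *Bcl11b*, came without the DBA/1J sample of replicate 3, where 221 genes were called in all against 0 with every sample. The counts of 0 in the other 7 comparisons of mutant with control stayed 0 in the alternatives run.

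On log2(TPM + 0.1) and log2(TPM + 1), *Cux2* was at -0.10 and -0.10 in h1/h1, -0.12 and -0.12 in h2/h2, -0.16 and -0.16 in h3/h3 and -0.046 and -0.045 in h4/h4, *Cux1* in h5/h5 hemisections at 0.11 and 0.11, and *Bcl11b* in hippocampus at 0.0051 and 0.0049. With the identifier series as a block, *Cux1* in h5/h5 hemisections was at 0.092, *Cux2* and *Pou3f2* in cortex at 0.0084 and -0.11, and *Fezf2* in hippocampus at -0.043. With the summed striatal markers as a covariate, *Cux2*, *Bcl11b* and *Foxp2* in cortex were at 0.072, -0.0073 and -0.058. The cause of these sign changes was not tested, beyond the longer assigned lengths of *Cux2* in h1/h1 to h4/h4, which TPM divide by.

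Of the 70 fitted differences of the 9 genes between mutant and control, none of them called, 58 moved by over 1.5 times or changed sign when 1 library was left out. Leaving out each library, *Tbr1* ranged from -0.14 to 0.25 in h1/h1, from -0.13 to 0.25 in h3/h3 and from -0.065 to 0.31 in the 4 lines together, and *Fezf2* from -0.20 to 0.15 in h3/h3, from -0.022 to 0.32 in h4/h4 and from -0.16 to 0.18 in the 4 lines together. The lowest of these came without the C57BL/6J sample of replicate 1. *Cux1* in h5/h5 hemisections ranged from -0.093 to 0.084, *Fezf2* in hippocampus from -6.9e-05 to 0.23 and *Foxp2* there from -0.35 to 0.40.

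With the replicate number as a block, 0 layer genes were called in each comparison of mutant with control, and *Rspo1* in cortex was at -1.40 (adjusted p = 0.27). Deviations of same-numbered samples correlated above 0.1 in every pair only for h1/h1 hemisections (0.113, 0.119 and 0.198). With the animal as a block, 8 layer genes were called between cortex and hippocampus, where 7 were without it. Depth limits *Rspo1* and *Fezf2* in cerebellum, where they had at most 25 and 1 counts and were not tested.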
